A study of Mus musculus with 9 samples.

Results

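The 8 genes described here are the metallothioneins Mt1 and Mt2, their metal-sensing transcription factor Mtf1, the zinc exporters Slc30a1 and Slc30a4, and the zinc importers Slc39a1, Slc39a10 and Slc39a14. They are rows picked by gene name from the 54532 genes of the RNA-seq table, with earlier results of these data known. All 8 were among the 16123 genes that reached a mean of 0.2 FPKM and were tested. FPKM are fragments per kilobase of gene, scaled by 1 factor per library. The cells were BV2, an immortalised mouse microglial line, so the results describe 1 line in culture and no tissue. There were 9 libraries, 3 in each of 3 groups. Control cells were kept in medium with 10% serum. The OGD group went through oxygen-glucose deprivation, in low-glucose medium with 4% serum at 4% oxygen. The OGD-A485 group had the same deprivation with A-485, an inhibitor of the catalytic activity of the histone acetyltransferase P300 and its paralogue CBP. The methods give 24 h of deprivation and 50 μM A-485 for the experiments that preceded the transcriptome. OGD therefore differed from control in serum as well as in oxygen and glucose, and no group had A-485 without deprivation.

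Zinc is a structural or catalytic part of a large share of cellular proteins, yet the free ion is toxic, so cells hold it at very low levels. Metallothioneins are small cysteine-rich proteins that bind zinc and copper in the cytosol. Most ZnT proteins of the SLC30 family move zinc out of the cytosol, across the plasma membrane or into vesicles, and ZIP proteins of the SLC39 family move it in. When cytosolic zinc rises, the transcription factor MTF-1 binds metal response elements (MREs) in the promoters of Mt1, Mt2 and Slc30a1 and raises their transcription. Metallothionein genes also respond to glucocorticoids, to STAT3-activating cytokines, to oxidants and to low oxygen.

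The promoters are shown because the stretches searched held the MRE core for some of the genes and not for others. For 7 of the 8 genes the RefSeq table (GRCm38.p6) held a promoter, with 2 starts for Slc39a10, and the stretch from 250 bases before to 30 bases after each start was searched on both strands. The MRE core was spelled TGCACNC or TGCGCNC, and the core of the hypoxia response element, which HIF binds, was spelled ACGTG or GCGTG. The stretches are printed below 5′ to 3′ on the gene's own strand, with the MRE cores in capitals; a core on the opposite strand appears as its complement read backwards. Mt1 is at chr8:94178839-94179118 and Mt2 at chr8:94172368-94172647, both on the plus strand. Slc30a1 is at chr1:191906531-191906810 on the plus strand, Slc30a4 at chr2:122702634-122702913 on the minus strand, and the start of Slc39a10 that lies inside the gene as annotated in the deposited table at chr1:46853589-46853868 on the minus strand.
Mt1: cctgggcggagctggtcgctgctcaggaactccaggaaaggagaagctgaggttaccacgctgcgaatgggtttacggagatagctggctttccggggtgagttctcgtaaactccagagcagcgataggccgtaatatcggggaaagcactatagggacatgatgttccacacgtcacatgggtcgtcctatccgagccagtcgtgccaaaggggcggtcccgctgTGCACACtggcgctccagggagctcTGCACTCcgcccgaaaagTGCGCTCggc
Mt2: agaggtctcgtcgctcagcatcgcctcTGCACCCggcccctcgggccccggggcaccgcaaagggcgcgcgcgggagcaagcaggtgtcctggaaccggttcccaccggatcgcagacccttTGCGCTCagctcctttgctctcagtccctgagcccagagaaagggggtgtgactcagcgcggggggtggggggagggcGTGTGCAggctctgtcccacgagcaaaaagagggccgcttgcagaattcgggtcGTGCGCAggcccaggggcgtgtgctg
Slc30a1: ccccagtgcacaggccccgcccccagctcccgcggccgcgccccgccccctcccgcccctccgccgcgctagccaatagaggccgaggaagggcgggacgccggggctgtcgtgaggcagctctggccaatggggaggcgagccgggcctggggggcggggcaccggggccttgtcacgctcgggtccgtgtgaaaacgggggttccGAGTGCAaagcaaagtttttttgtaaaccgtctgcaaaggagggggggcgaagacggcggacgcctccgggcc
Slc30a4: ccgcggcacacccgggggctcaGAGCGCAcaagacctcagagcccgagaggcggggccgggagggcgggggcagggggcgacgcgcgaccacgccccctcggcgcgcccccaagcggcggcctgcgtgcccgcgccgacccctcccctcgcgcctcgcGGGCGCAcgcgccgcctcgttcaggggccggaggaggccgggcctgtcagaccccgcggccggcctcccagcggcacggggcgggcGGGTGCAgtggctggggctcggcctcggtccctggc
Slc39a10: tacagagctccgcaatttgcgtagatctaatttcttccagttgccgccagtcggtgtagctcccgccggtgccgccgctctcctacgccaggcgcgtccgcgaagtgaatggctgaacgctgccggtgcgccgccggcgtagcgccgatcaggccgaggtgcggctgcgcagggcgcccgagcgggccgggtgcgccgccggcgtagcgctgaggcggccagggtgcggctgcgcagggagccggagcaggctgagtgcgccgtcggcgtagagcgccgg

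Mt1 held 3 MRE cores, Mt2 held 4, Slc30a1 held 1 and Slc30a4 held 3. Among 32851 promoters of the same length, 24.1% held at least 1 such core, 1.73% at least 3 and 0.405% at least 4. In the 250 bases before the start alone, which were searched first, Mt1 held 1 core, Mt2 held 3, Slc30a1 held 1 and Slc30a4 held 2, where 21.4% of promoters held at least 1, 5.17% at least 2 and 1.26% at least 3. The stretches of Mtf1, Slc39a1 and both starts of Slc39a10 held none. The bases G and C made up 59.6% of the stretch of Mt1, 68.6% of Mt2, 72.5% of Slc30a1 and 82.1% of Slc30a4. They made up 66.8% of Mtf1, 67.1% of Slc39a1, and 72.1% and 37.1% of the 2 starts of Slc39a10. The shares over all promoters were not matched for this content. The hypoxia core occurred 2 times in Mt1, 2 times in Mt2, 1 time in Slc30a1, 3 times in Slc30a4 and 1 time in Slc39a1. Of all promoters, 41.8% held at least 1, 19.2% at least 2 and 8.09% at least 3. In the 250 bases before the start alone, Mt2 held 1 and the other counts were the same. There 38.6% of promoters held at least 1, 16.7% at least 2 and 6.58% at least 3. One hypoxia core of Mt2 shared 3 bases with an MRE core, and one of Slc30a4 shared 2. The matches are letters in a window set by 1 annotated start: annotated transcripts begin 122 and 152 bases after the RefSeq start of Mt1 and 46 and 242 bases after that of Mt2, and their own surroundings were not searched. From the gene start in the deposited annotation, the RefSeq start lay at -445 bases for Mtf1, where a negative value is inside the gene. For Slc39a10 the offsets were -39234 and 32924 bases. A stretch without the core therefore does not show that the gene lacks it elsewhere. Slc39a14 was the gene without a promoter and was not searched. Binding of MTF-1 or HIF was not measured.

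**Figure D1:**
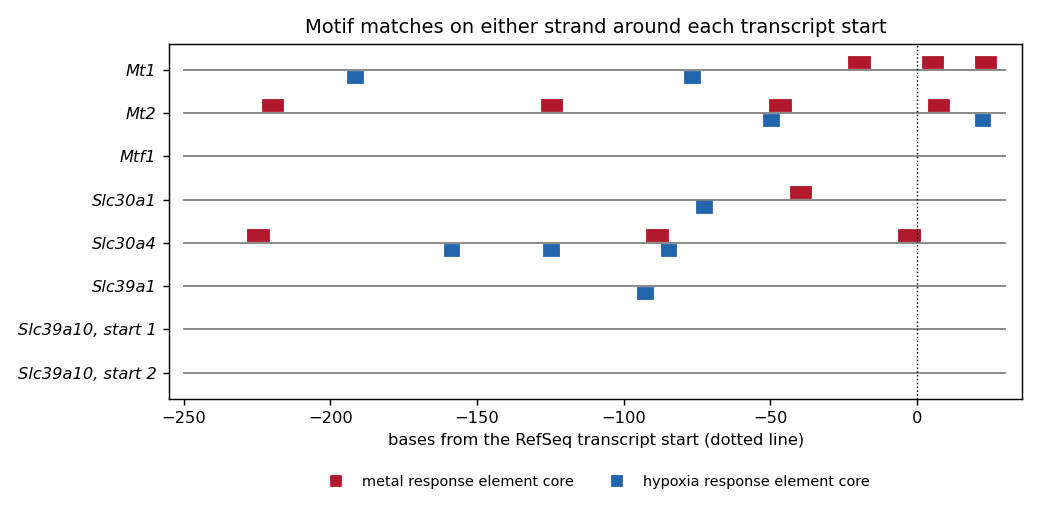
Positions of the MRE core (red, above each line) and the hypoxia response element core (blue, below it), in bases from the RefSeq transcript start, from 250 bases before to 30 bases after it. Mt1, Mt2 and Slc30a4 held 3, 4 and 3 MRE cores and Slc30a1 held 1, while the lines of Mtf1, Slc39a1 and both starts of Slc39a10 carry none.

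The reads on genes numbered 12593250 to 16091038 per library. A read on 1 kilobase of gene was worth 0.0618 to 0.0786 FPKM. The divisor behind the FPKM was in every library 1.41e+07 times a size factor. That factor is the median over genes of their reads relative to their geometric mean over the libraries. The scaling thus did not follow the total of reads: control library 3 (15594706 reads) had 0.0618 and OGD-A485 library 2 (16091038 reads) had 0.0633. Mitochondrial transcripts took 1.14% to 2.20% of the reads. The labels do not say whether the 3 libraries of a group came from separate cultures, and p-values then measure only the spread between these libraries. Summed FPKM over 11 microglia and macrophage markers, among them Csf1r and Spi1, ranged from 403 to 414 in the control libraries, then from 518 to 543 under OGD alone, while A-485 libraries had 836 to 880. P2ry12, a marker of resting microglia in tissue, was below the minimum mean. Summed astrocyte markers reached at most 0.155 FPKM, neuronal markers 0.676 and oligodendrocyte markers 2.36. The part of this difference between the groups in the values of the zinc genes was not tested. In bulk RNA, fewer cells expressing a gene and less RNA of it per cell cannot be told apart.

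A gene was called where limma gave an unadjusted p under 0.01 and the log2 fold change exceeded 0.5 in either direction, the thresholds of the study. All fold changes are on the log2(FPKM + 0.1) scale, and adjusted p-values are Benjamini-Hochberg values from limma over the 16123 genes. In OGD against control, 0 of the 8 zinc genes rose and 1 fell, Slc39a10, where 11.2% of all genes tested were called higher and 9.81% lower. In OGD-A485 against OGD, 4 rose (Mt1, Mt2, Slc30a1 and Slc39a1) and 2 fell (Slc30a4 and Slc39a10), beside 12.2% called higher and 13.4% lower among all genes. Of the 10 microglial markers tested, 5 were called higher and 0 lower in OGD than in control, and 7 higher and 0 lower in OGD-A485 than in OGD. In OGD-A485 against control the same 4 zinc genes rose and the same 2 fell, beside 17.0% higher and 16.6% lower. The libraries of the groups did not overlap for 4 of the 8 genes in OGD against control, higher for 2 and lower for 2, where 28.0% of all genes lay wholly higher and 27.5% wholly lower. They did not overlap for any of the 8 in the comparisons with A-485, where 4 were higher and 4 lower. Of all genes, 28.5% lay wholly higher and 28.3% wholly lower in OGD-A485 than in OGD, and 31.8% and 32.0% in OGD-A485 than in control. The median log2 fold change of the 8 was -0.19, 0.23 and 0.23 in these comparisons, against 0.01, 0.01 and 0.02 over all genes. The comparisons share libraries: OGD enters the first and the second, control the first and the third, and OGD-A485 the second and the third.

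**Figure D2:**
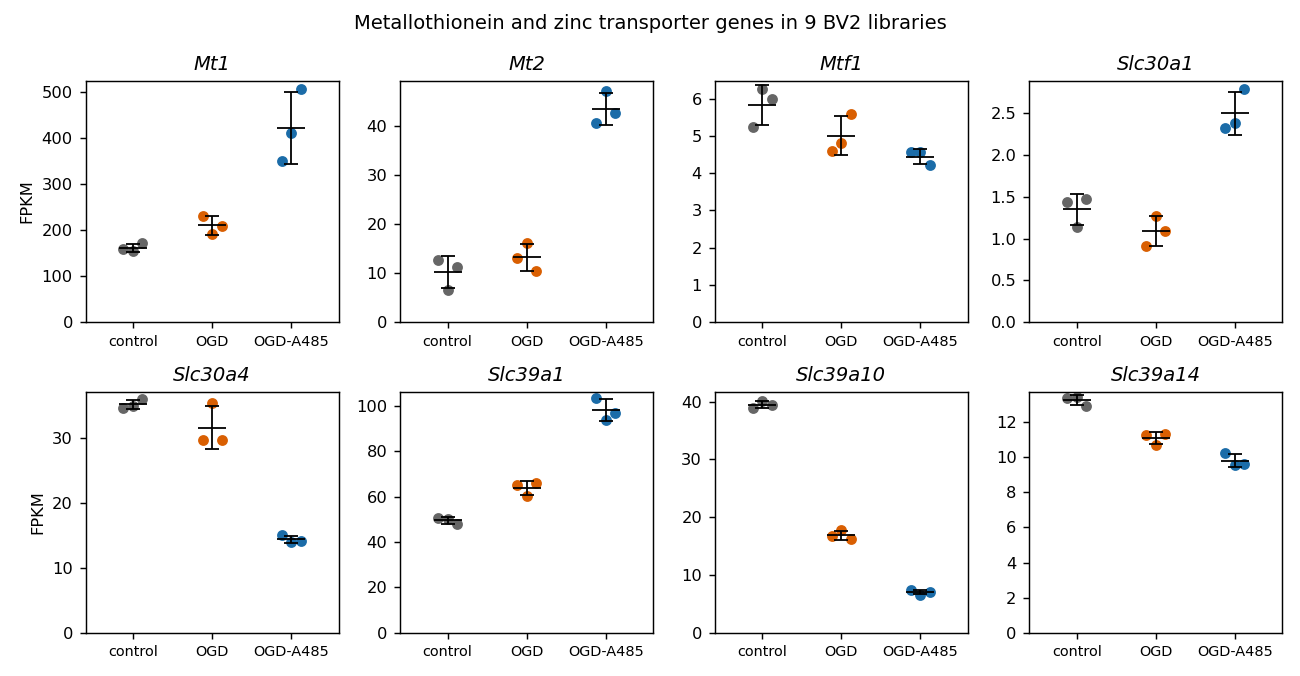
FPKM of the 8 genes in every library, with control, OGD and OGD-A485 side by side; each point is 1 library and each bar the mean of 3 with its SD. In all 8 panels the OGD-A485 libraries lie apart from the OGD libraries, above them for Mt1, Mt2, Slc30a1 and Slc39a1 and below them for Mtf1, Slc30a4, Slc39a10 and Slc39a14.

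Mt1 (ENSMUSG00000031765, chromosome 8, bases 94179082 to 94180327, plus strand) encodes a metallothionein that most cell types make. Its mean level lay at the 99.1 percentile of the genes tested. The control libraries gave 159, 154 and 172 FPKM, the OGD libraries 231, 191 and 208, and the OGD-A485 libraries 351, 411 and 507. The lowest OGD library exceeded the highest control library, and all OGD-A485 libraries were above both groups. The control mean was 162 ± 8.88 FPKM, the OGD mean 210 ± 20.2 and the OGD-A485 mean 423 ± 78.5 (SD, n = 3), from 2643 to 9102 reads. The log2 difference of 0.38 (SE 0.13) between OGD and control, 1.30-fold, did not pass the call thresholds, though its adjusted p by limma was 0.0368. Over the alternatives listed below it ranged from 0.21 to 0.44 and was never called. Its adjusted p by limma then ran from 0.00343 (limma-voom on recovered reads) to 0.163 (quantile normalization). With A-485 Mt1 rose 1.99-fold over OGD (log2 0.996, SE 0.13, adjusted p by limma 0.000184) and 2.59-fold over control (log2 1.37, adjusted p 1.73e-05).

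Mt2 (ENSMUSG00000031762, chromosome 8, bases 94172664 to 94173568, plus strand) encodes the other widely made metallothionein, and its annotated end lies 5513 bases before the start of Mt1. The control libraries gave 12.7, 6.56 and 11.2 FPKM, the OGD libraries 13.1, 16.1 and 10.5, and the OGD-A485 libraries 40.6, 47.2 and 42.7. Control and OGD overlapped, and the OGD-A485 libraries stood far above both. The means were 10.2 ± 3.22, 13.2 ± 2.78 and 43.5 ± 3.34 FPKM (SD, n = 3). The counts were low without A-485, 55 to 123 reads per library, and 349 to 438 with it. OGD differed from control by 0.41 on the log2 scale (SE 0.24, adjusted p by limma 0.199), which is within the spread between libraries. With A-485 Mt2 rose 3.31-fold over OGD (log2 1.73, SE 0.24, adjusted p by limma 0.000307) and 4.40-fold over control (log2 2.14, adjusted p 6.02e-05). Its log2 fold change in OGD-A485 against OGD lay at the 96.9 percentile of all genes tested.

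Whether both metallothioneins moved by the same amount was read from the ratio of their values (FPKM + 0.1) within each library. The log2 ratio of Mt1 to Mt2 was 3.63, 4.54 and 3.92 in control, 4.13, 3.56 and 4.29 in OGD, and 3.11, 3.12 and 3.57 in OGD-A485. The OGD-A485 ratios were all below the control ratios, and the highest of them lay just above the lowest OGD ratio. OGD and control differed by -0.03 (two-sided exact permutation p 0.9). OGD-A485 differed from OGD by -0.73 (exact permutation p 0.2) and from control by -0.76 (exact permutation p 0.1, the smallest that 3 against 3 libraries allow). Adjusted over these 3 comparisons the exact permutation p-values were 0.9, 0.3 and 0.3, and this test with 3 against 3 libraries cannot reach 0.05. The level of Mt1 relative to Mt2 depends on gene length: the deposited length of Mt1, 1246 bases, is its whole span with introns, whereas its shortest coding transcript of 3 exons has 549 bases, against 588 and 388 for Mt2. Mt1 was 15.9 times as high as Mt2 in control and 9.73 times as high in OGD-A485 by the deposited lengths, and 23.8 and 14.6 times by the shortest coding transcripts. The change between groups does not depend on the length used.

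**Figure D3:**
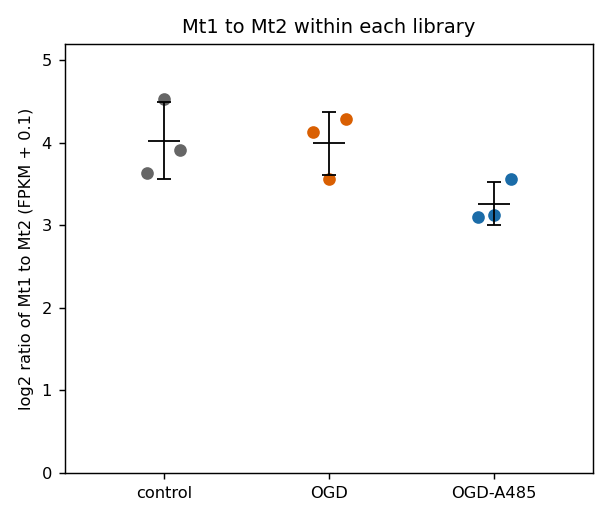
The log2 ratio of Mt1 to Mt2 FPKM in each of the 9 libraries, with the mean and SD of each group. The means were 4.03 ± 0.46 in control, 4.0 ± 0.38 in OGD and 3.27 ± 0.26 in OGD-A485, and 1 OGD-A485 library reached the lowest OGD library.

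Mtf1 (ENSMUSG00000028890, chromosome 4, bases 124802104 to 124849800, plus strand) encodes MTF-1, which binds the MREs. The control libraries held 5.24, 6.26 and 5.99 FPKM, the OGD libraries 4.60, 4.80 and 5.59, and the OGD-A485 libraries 4.56, 4.56 and 4.22. Control and OGD overlapped, and the OGD-A485 libraries were lowest, just below the OGD range. The means were 5.83 ± 0.533, 5.0 ± 0.523 and 4.44 ± 0.194 FPKM (SD, n = 3). No comparison passed the call thresholds: the log2 differences were -0.22 in OGD against control (adjusted p by limma 0.0896), -0.16 in OGD-A485 against OGD (0.192) and -0.38 in OGD-A485 against control (0.0073). The transcript of the factor was thus not higher in the group in which Mt1, Mt2 and Slc30a1 were highest, and MTF-1 protein, its location and free zinc were not measured.

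Slc30a1 (ENSMUSG00000037434, chromosome 1, bases 191906767 to 191913247, plus strand) encodes ZnT1, the exporter that carries zinc across the plasma membrane. It was the lowest of the 8 genes, at the 33.4 percentile. The control libraries gave 1.44, 1.14 and 1.47 FPKM, the OGD libraries 0.914, 1.27 and 1.08, and the OGD-A485 libraries 2.32, 2.38 and 2.79. Control and OGD overlapped and every OGD-A485 library was above both. The means were 1.35 ± 0.185, 1.09 ± 0.180 and 2.50 ± 0.256 FPKM (SD, n = 3), from 61 to 125 reads per library without A-485 and 178 to 211 with it. OGD against control gave -0.29 on the log2 scale (SE 0.16, adjusted p by limma 0.174). With A-485 Slc30a1 rose 2.19-fold over OGD (log2 1.13, SE 0.16, adjusted p by limma 0.000334) and 1.80-fold over control (log2 0.84, adjusted p 0.00151).

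Slc30a4 (ENSMUSG00000005802, chromosome 2, bases 122681233 to 122702663, minus strand) encodes ZnT4, which loads zinc into intracellular vesicles. It was far more abundant than Slc30a1 in control and OGD and went the other way with A-485. Control gave 34.7, 35.0 and 36.1 FPKM, OGD 29.8, 35.5 and 29.8, and OGD-A485 15.0, 14.0 and 14.2. The second OGD library lay within the control range and the other two below it, and the OGD-A485 libraries were lowest by a wide margin. The means were 35.3 ± 0.725, 31.7 ± 3.29 and 14.4 ± 0.551 FPKM (SD, n = 3). OGD against control gave -0.16 on the log2 scale (SE 0.07, adjusted p by limma 0.0902). With A-485 Slc30a4 was 2.18-fold lower than in OGD (log2 -1.13, adjusted p by limma 2.4e-06) and 2.44-fold lower than in control (log2 -1.29, adjusted p 5.99e-07).

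Slc39a10 (ENSMUSG00000025986, chromosome 1, bases 46807544 to 46892852, minus strand) encodes ZIP10, a plasma membrane zinc importer. It was called lower in all 3 comparisons at the fold threshold of 0.5. The control libraries gave 38.9, 40.0 and 39.4 FPKM, the OGD libraries 16.8, 17.7 and 16.2, and the OGD-A485 libraries 7.39, 6.63 and 7.10. The groups formed 3 separate steps, each with little spread. The means were 39.5 ± 0.553, 16.9 ± 0.781 and 7.04 ± 0.385 FPKM (SD, n = 3), from 3170 to 3892, 1301 to 1405 and 624 to 658 reads per library. Slc39a10 was 2.33-fold lower in OGD than in control (log2 -1.22, SE 0.05, adjusted p by limma 7.3e-07). It was a further 2.38-fold lower in OGD-A485 than in OGD (log2 -1.25, SE 0.05, adjusted p 2.85e-07), and 5.55-fold lower than in control (log2 -2.47, adjusted p 7.28e-09). These log2 fold changes lay at the 2.23, 5.77 and 0.943 percentiles of all genes tested.

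Slc39a1 (ENSMUSG00000052310, chromosome 3, bases 90248172 to 90253612, plus strand) encodes ZIP1, a widely expressed plasma membrane importer, and its transcript went the opposite way to that of Slc39a10. Control gave 50.4, 50.4 and 47.9 FPKM, OGD 65.4, 60.3 and 66.1, and OGD-A485 104, 94.1 and 97.2. The groups did not overlap, with OGD between control and OGD-A485. The means were 49.6 ± 1.46, 63.9 ± 3.15 and 98.3 ± 4.85 FPKM (SD, n = 3). The 1.29-fold difference between OGD and control (log2 0.37, SE 0.05) was below the fold threshold, with an adjusted p by limma of 0.000387. With A-485 Slc39a1 rose 1.54-fold over OGD (log2 0.62, adjusted p by limma 1.36e-05) and 1.98-fold over control (log2 0.98, adjusted p 4.97e-07). After quantile normalization the log2 fold change in OGD-A485 against OGD was 0.48, below the threshold.

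Slc39a14 (ENSMUSG00000022094, chromosome 14, bases 70303469 to 70351425, minus strand) encodes ZIP14, an importer of zinc, manganese and non-transferrin-bound iron that the acute-phase response induces in liver. Control gave 13.4, 13.4 and 12.9 FPKM, OGD 11.3, 10.7 and 11.3, and OGD-A485 10.2, 9.57 and 9.59. The groups were separate and the steps small. The means were 13.2 ± 0.289, 11.1 ± 0.365 and 9.80 ± 0.384 FPKM (SD, n = 3). No comparison passed the fold threshold, with log2 differences of -0.25 (adjusted p by limma 0.00201), -0.18 (0.0113) and -0.43 (5.09e-05) in OGD against control, OGD-A485 against OGD and OGD-A485 against control. With library totals set equal, the last of these was -0.54 and passed it. Of its 50 nearest expressed genes, 22 were called higher and 7 lower in OGD-A485 than in control, beside the 17.0% and 16.6% of all genes, and the median log2 difference of the 50 was 0.38. Around the other 7 genes the medians over nearby genes ranged from -0.14 to 0.14 over the 3 comparisons.

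**Figure D4:**
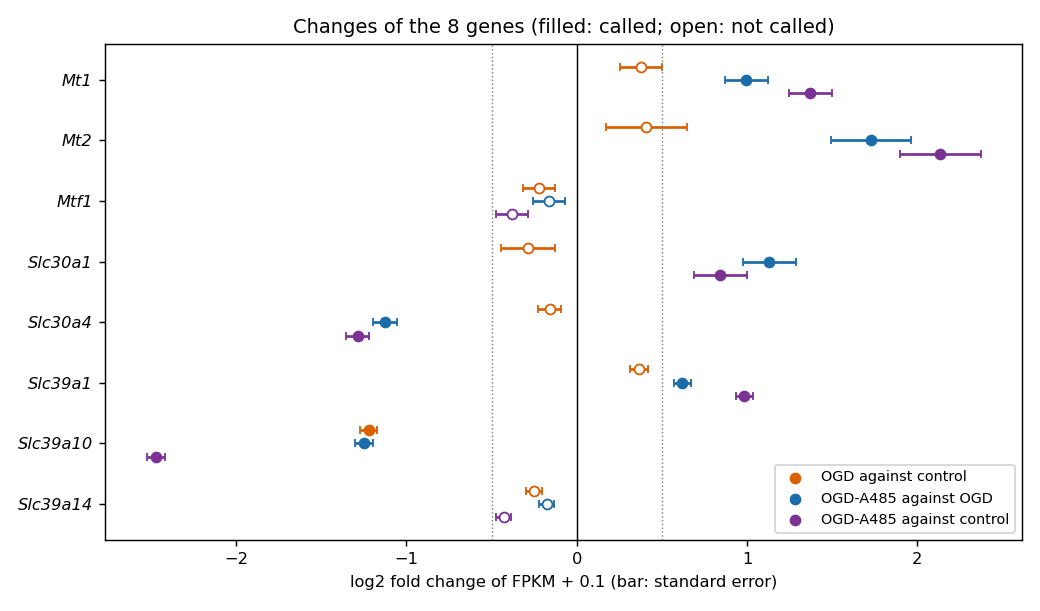
Log2 fold changes of the 8 genes with their standard errors in OGD against control, OGD-A485 against OGD and OGD-A485 against control; filled points passed the call thresholds, open points did not, and dotted lines mark 0.5 in either direction. Slc39a10 lies beyond the lower line in all 3 comparisons, at -1.22, -1.25 and -2.47, and Mt2 reaches 1.73 and 2.14 in the comparisons with A-485.

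By level per length, the order in control was Mt1, Slc39a1, Slc39a10, Slc30a4, Slc39a14, Mt2, Mtf1 and Slc30a1. In OGD it was Mt1, Slc39a1, Slc30a4, Slc39a10, Mt2, Slc39a14, Mtf1 and Slc30a1, where the libraries of Mt2 and Slc39a14 overlapped and the other neighbours did not. In OGD-A485 Mt2 was in the third place, and Slc39a10 had moved behind Slc30a4 and Slc39a14. The level of Slc39a14 depends on the length used: in control it was 13.2 FPKM with the deposited length and 28.3 with that of its longest coding transcript.

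Of the other 21 metallothionein, SLC30 and SLC39 genes, 13 were tested. Mt3, Mt4, Slc30a8, Slc30a10 and Slc39a12 had 0 reads in all 9 libraries, and Slc30a2, Slc30a3 and Slc39a8 were below the minimum mean. In OGD against control 2 of the 13 rose, Slc30a9 and Slc39a2, and 1 fell, Slc39a6, close to the 11.2% and 9.81% of all genes. In OGD-A485 against OGD 5 of 13 rose and 0 fell, beside 12.2% and 13.4% of all genes, and all 5 were importers: Slc39a7 (log2 0.89, the ZIP7 of the endoplasmic reticulum and Golgi), Slc39a6 (0.71), Slc39a2 (0.71), Slc39a9 (0.69) and Slc39a11 (0.62). Slc39a7 had 50 to 67 reads per library in OGD and 109 to 156 in OGD-A485. In OGD-A485 against control 5 rose and 0 fell, beside 17.0% and 16.6%. The median log2 fold change of the 9 other importers tested was 0.09 in OGD against control and 0.62 in OGD-A485 against OGD. That of the 4 other SLC30 genes tested was -0.01 and -0.01. In OGD against control these 4 went in opposite directions, from -0.43 for Slc30a6 to 0.72 for Slc30a9. Among the 12 importers tested, Slc39a10 was the only one called lower in OGD-A485 than in OGD.

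Slc39a6, which encodes ZIP6, the closest relative of ZIP10, was lower in OGD like Slc39a10 and did not follow it with A-485. Its control libraries gave 35.9, 34.6 and 37.5 FPKM, its OGD libraries 24.2, 23.1 and 25.5, and its OGD-A485 libraries 39.9, 40.1 and 39.3. It fell in OGD (log2 -0.57, adjusted p by limma 1.77e-05) and rose with A-485 over OGD (log2 0.71, adjusted p 3.28e-06). With A-485 it stood above all control libraries, by a small difference that was not called (log2 0.14). Slc30a9 rose in OGD from 5.78 ± 0.0748 to 9.61 ± 0.337 FPKM (SD, n = 3; log2 0.72, adjusted p by limma 8.39e-06) and was 7.90 ± 0.334 in OGD-A485.

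**Figure D5:**
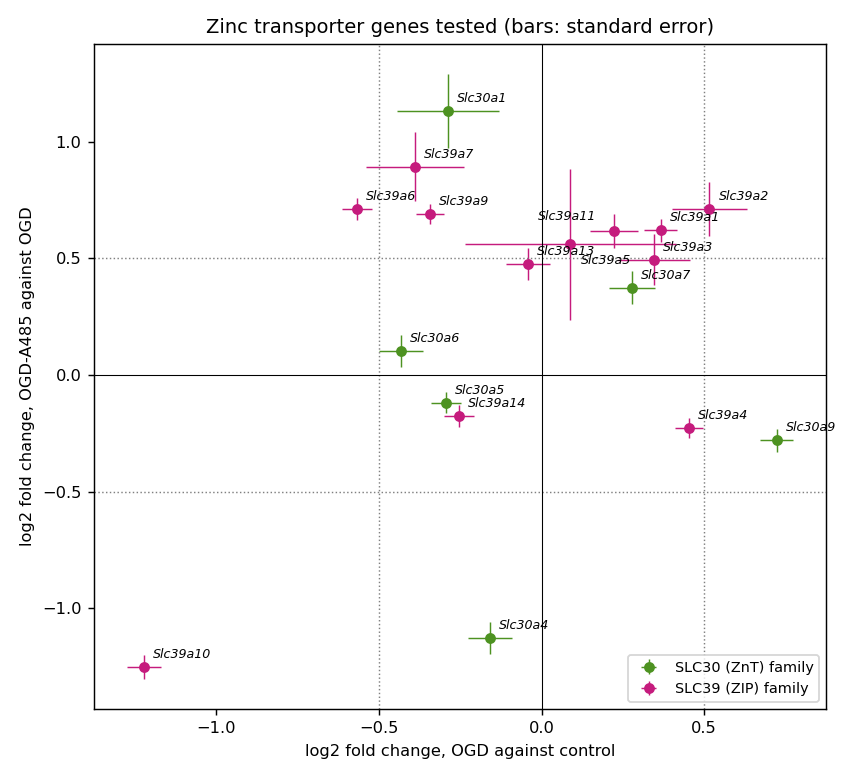
Log2 fold change in OGD against control (x axis) and in OGD-A485 against OGD (y axis) of the 18 zinc transporter genes tested, with standard errors; both axes use the OGD libraries, so the position of a point along them is not independent. Slc39a10 lies alone at the lower left, at -1.22 and -1.25, and Slc30a4 is the other gene below -0.5 on the y axis.

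The counts that follow stand beside 11.2% of all genes called higher and 9.81% lower in OGD against control, and 12.2% and 13.4% in OGD-A485 against OGD. Of 11 tested copper-handling genes, which serve the other main metal bound by metallothioneins, 3 rose and 1 fell in OGD, and 3 rose and 3 fell in OGD-A485 against OGD. Atp7b, a copper-exporting ATPase, rose in OGD (log2 2.33, adjusted p by limma 2.66e-06) and fell with A-485 (-1.79, 6.19e-06). Slc31a2, a copper transporter of endosomes and lysosomes, rose with A-485 (log2 1.06, adjusted p 5.46e-06).

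Of 9 tested genes of the metal and oxidant response, 0 rose and 4 fell in OGD. Slc7a11, the cystine importer, fell by 0.99 on the log2 scale and Gclm and Gclc, the subunits of the enzyme that starts glutathione synthesis, fell by 0.80 and 0.69. With A-485 1 rose and 0 fell against OGD, Nfe2l2 (log2 0.99, adjusted p by limma 2.35e-07), the oxidant-responsive factor NRF2.

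Of 8 glucocorticoid-responsive genes, 6 rose and 0 fell in OGD, and 1 rose and 4 fell in OGD-A485 against OGD. Sgk1 (-1.30), Zbtb16 (-1.09) and Dusp1 (-0.76) had the largest of the falls on the log2 scale, and the gene that rose, named after its value was seen, was Tsc22d3 (0.69). Of 8 genes of the STAT3 and acute-phase response, 1 rose and 2 fell in OGD, and 4 rose and 0 fell with A-485. Saa3, an acute-phase protein gene, rose in OGD-A485 against OGD (log2 2.89, adjusted p by limma 2.05e-05), as did Cebpd (0.78) and Il6ra (0.62). Saa3 had 24 to 54 reads per library in OGD and 313 to 366 in OGD-A485. The median log2 fold changes over the tested genes of the copper, oxidant, glucocorticoid and STAT3 lists were 0.10, -0.35, 0.58 and -0.29 in OGD against control and 0.27, 0.12, -0.38 and 0.39 in OGD-A485 against OGD, against 0.01 over all genes in both.

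The genes nearest in pattern to each zinc gene were found among 10212 genes by the root mean square difference of log2 values, centred on the control mean, over the 6 OGD and OGD-A485 libraries. For Mt1 these were Blvra (0.152), Cmtm3 (0.155) and Tor4a (0.156), and for Mt2 they were Ogdhl (0.157), Pid1 (0.170) and Creg2 (0.178). For Slc30a1 they were Snhg4 (0.135), Selenot (0.149) and Lmo4 (0.154), and for Slc30a4 they were Lysmd3 (0.0795), Mettl4 (0.0851) and Elk3 (0.0962). The nearest to Slc39a10 were farther away, Pif1 (0.187), Wasf1 (0.210) and Acsl3 (0.270), while those to Slc39a1 were close, Esyt1 (0.0352), Dnase1l1 (0.0428) and Myh9 (0.0461). For Slc39a14 they were Ccdc61, Ctnnbl1 and Ash2l. No zinc gene was among the 3 nearest of another.

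Some of the genes overlap others, and whether the reads were counted by strand is not given in the sources used here. Mtf1 shares 721 bases with 1110065P20Rik on the opposite strand (mean 3.32 FPKM), and Slc39a10 shares 951 bases with the noncoding Gm28151 on the same strand (1.77 FPKM). The antisense genes over Mt2, Slc30a1 and Slc30a4 had means of 0.171, 0.142 and 0.145 FPKM. Slc39a2 shares 151 bases with Mettl17 on the same strand (3.97 FPKM), Slc39a9 shares 459 with Erh on the opposite strand (99.96 FPKM) and Slc39a11 shares 911 with Cog1 on the opposite strand (6.04 FPKM). Larger overlaps on the opposite strand are those of Slc39a13 with Psmc3 (4579 bases, 54.1 FPKM) and Slc39a5 with Ankrd52 (5299 bases, 24.8 FPKM). The bases are those of whole gene spans with introns, so shared bases need not be exon bases. Reads in shared bases could not be assigned to one gene from these values.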

How the data were processed

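mRNA-seq libraries of BV2 cells were sequenced and, per the methods, reads with adapters, undetermined bases or low quality were removed and the rest counted per gene with featureCounts v1.5.0-p3. The authors deposited FPKM per gene and library, with gene coordinates and lengths, on GRCm38 (mm10) per the submitters' processing notes. The aligner is not given in the sources used here. FPKM times gene length came in whole multiples of 1 read in every library (100% of values within 0.01 of a whole read), which gave the reads and depth.

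Genes averaging 0.2 FPKM or more were fitted with limma 3.58.1 (eBayes with trend, R 4.3.3) on log2(FPKM + 0.1) over all 9 libraries. The study's count test was not the main test because the deposited unit is FPKM. The Mt1 to Mt2 ratio was tested by exact permutation (SciPy 1.17.1). Named genes were the 8 zinc genes, zinc family genes averaging 1 FPKM or more, at most 3 called genes per list and comparison with the largest fold change at that mean, and the 3 nearest in pattern (for Mtf1 these are not reported here); genes with 0 or few reads are named besides. The genes and lists were chosen with earlier results of these data known, and the promoter stretch was extended by the 30 bases after the start once the matches in the 250 bases before it had been seen. The alternatives were other pseudocounts, filters, normalizations, call rules and fits, limma-voom on recovered reads, and leaving out each library. 0 columns of per-library values were left unused.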

Additional observations from a re-analysis of the deposited data

How the results depend on the processing

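No call among the 8 genes reversed its direction under any alternative run. Among the 8 genes, 1 was called in OGD against control, 6 in OGD-A485 against OGD and 6 in OGD-A485 against control, and over the alternatives these counts were 1, 5 to 6 and 6 to 7. Some alternatives could change only the p-value of a gene and not its fold change. These were other filters, the replicate block, fitting only the groups compared, and leaving out a library of the third group. Of 432 comparisons of a single gene with its value as reported, these included, 430 kept their side of the threshold. The exceptions were Slc39a1 in OGD-A485 against OGD after quantile normalization (log2 0.48) and Slc39a14 in OGD-A485 against control with equal library totals (-0.54). Scaling to equal library totals also moved the split over all genes in OGD-A485 against control from 2747 higher and 2684 lower to 2253 higher and 3349 lower. With the replicate number as a replicate block, 3288, 4046 and 5317 genes were called against 3384, 4139 and 5431 without it, and no call among the 8 was lost. Libraries with the same number did not deviate together (mean correlation of deviations -0.002). The labels do not say whether libraries with the same number were handled together. The Mt1 to Mt2 ratio in OGD-A485 against OGD ranged from -0.95 to -0.58 when single libraries were left out, and was -0.67 and -0.74 with pseudocounts of 1 and 0.01, chosen after the data were seen. Among the 8 genes, depth limited Mt2 and Slc30a1 most, with as few as 55 and 61 reads in a library.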
